A study of Mus musculus with 8 samples.

Results

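The immediate early genes followed here are 10 transcripts of epididymal white fat, Nr4a1, Nr4a2, Nr4a3, Fos, Fosb, Junb, Egr1, Ier2, Atf3 and Dusp1, among 18691 genes measured in the series. They were chosen by name as genes that cyclic AMP induces and that tissue handling can induce as well, and all 10 were found by their symbol in every one of the 8 libraries. All came from C57BL/6J mice at 16 weeks of age, and the groups were 4 wild type (WT) libraries, numbered 1, 2, 3 and 4, and 4 libraries labelled Mrp4 KO (Mrp4-/-), numbered 1, 2, 4 and 5. Mrp4, encoded by Abcc4, is a membrane pump that moves cyclic AMP and prostaglandins out of cells. No other allele or agent is named for either group, and neither the structure of the Mrp4 allele nor whether each library stands for its own mouse is stated in the labels. P-values therefore measure the spread between libraries, which may be technical.

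Immediate early genes are transcribed within minutes of a stimulus, without the need for new protein, and their messenger RNAs are short-lived. Cyclic AMP acts on them through protein kinase A, which phosphorylates CREB on the cyclic AMP response element (CRE), while growth factors and stress act through MAP kinases and serum response factor at the serum response element (SRE). In fat, beta-adrenergic stimulation through cyclic AMP is a known inducer of the NR4A nuclear receptors. The same genes are known to be switched on by dissection, warming or dissociation of a tissue before its RNA is fixed. The labels say that the fat was flash frozen in liquid nitrogen, and give no times.

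The start-site windows of these genes carry short CRE sequences, and 4 of them are shown. Nr4a1 and Nr4a3 had lower means in the libraries labelled Mrp4 KO, and Fos and Dusp1 had higher means. Of these 4, only Nr4a1 passed the test described below, and no link between window and direction was tested. The windows are from RefSeq on GRCm38.p6, run from 250 bases before to 50 bases after the annotated start, and are read on the strand of the gene. The expression data were made on mm9, so the coordinates belong to the sequences alone. Capitals mark the CRE core TGACG on either strand (CGTCA when read from the other strand).
Nr4a1, chr15:101266596-101266895, + strand: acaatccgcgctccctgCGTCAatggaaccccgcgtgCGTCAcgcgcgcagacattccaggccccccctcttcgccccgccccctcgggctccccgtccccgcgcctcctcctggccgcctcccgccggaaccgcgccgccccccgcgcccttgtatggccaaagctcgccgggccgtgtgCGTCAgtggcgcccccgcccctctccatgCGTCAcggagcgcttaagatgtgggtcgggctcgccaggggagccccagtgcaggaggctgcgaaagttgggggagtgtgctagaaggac
Nr4a3, chr4:48045055-48045354, + strand: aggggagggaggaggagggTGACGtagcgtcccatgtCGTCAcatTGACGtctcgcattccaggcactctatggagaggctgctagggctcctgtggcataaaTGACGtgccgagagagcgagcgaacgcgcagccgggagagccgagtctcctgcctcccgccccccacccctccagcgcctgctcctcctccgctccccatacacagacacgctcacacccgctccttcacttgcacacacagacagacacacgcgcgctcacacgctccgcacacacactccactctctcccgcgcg
Fos, chr12:85473640-85473939, + strand: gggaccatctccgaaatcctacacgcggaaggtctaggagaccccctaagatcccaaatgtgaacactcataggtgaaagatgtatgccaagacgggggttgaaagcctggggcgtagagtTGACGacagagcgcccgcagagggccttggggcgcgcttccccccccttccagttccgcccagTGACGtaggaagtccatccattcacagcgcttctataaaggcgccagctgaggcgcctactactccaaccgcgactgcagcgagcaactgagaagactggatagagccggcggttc
Dusp1, chr17:26508423-26508722, - strand: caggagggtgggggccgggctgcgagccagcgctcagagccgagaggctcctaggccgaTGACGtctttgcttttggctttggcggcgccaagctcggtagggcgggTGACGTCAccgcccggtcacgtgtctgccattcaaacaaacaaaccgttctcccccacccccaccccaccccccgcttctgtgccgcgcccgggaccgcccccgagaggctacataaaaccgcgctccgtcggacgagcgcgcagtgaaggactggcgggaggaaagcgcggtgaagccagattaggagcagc

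The sequence table held windows of 8 of the 10 genes, all but Egr1 and Ier2. A CRE core was present in 8 of these 8 windows, against 20.8% of the 32851 windows of this length in the table. The genes were chosen by name as CREB targets, so CRE cores were likely in them beforehand, and the shares are a description. The windows of the table were taken whether or not their gene was detected in fat. The genes' windows were richer in G and C (58.7% to 81.7%, median 66.2%) than the table (median 52.7%), and among windows of at least 58.7% the share with a CRE core was 31.5%. Nr4a1, Nr4a2 and Nr4a3 held 4 CRE cores each, a number reached by 0.231% of all windows and by 0.591% of those rich in G and C. The CRE cores of Nr4a1 began 233, 213, 69 and 40 bases before the start. Dusp1 held 3 CRE cores, 2 of which overlap in the full palindrome TGACGTCA 143 bases before its start, and Dusp1 was the 1 gene of the 8 with that palindrome, which 1.79% of all windows contain. Fos held 2 CRE cores, the nearer one 66 bases before the start and upstream of a TATAAA that began 33 bases before it. Atf3, Fosb and Junb held 1 CRE core each. TATAAA, on either strand, was found in the windows of Nr4a2, Junb and Fos (13.6% of all windows). The AP-1 motif (TGAGTCA or TGACTCA), the EGR motif GCGTGGGCG, the NR4A monomer motif AAAGGTCA and the strict SRE CArG box were found in 0 of the 8 windows, and in 5.2%, 0.612%, 1.51% and 1.63% of all windows. Sites more than 250 bases before the start lie outside the windows, and Egr1 and Ier2 had no window, so such sites were not searched for. These are matches of letters on both strands and say nothing of binding.

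Transcript of Abcc4, the gene behind the Mrp4 label, showed no drop with that label. FPKM, the read fragments of a gene scaled by its transcript length and the library's depth, ranged from 3.33 to 3.81 for Abcc4 in WT and from 3.31 to 3.89 in the labelled group (exact two-sided permutation p = 0.571, where 0.0286 is the smallest that 4 against 4 can give). Directions are therefore given for the libraries as labelled. Libraries held 14064681 to 14700114 expected counts. Of 14257 tested genes, 2606 differed between the groups (18.3%), 1458 higher (10.2%) and 1148 lower (8.05%) in the libraries labelled Mrp4 KO at an edgeR quasi-likelihood p of 0.05 adjusted by Benjamini and Hochberg. The share of higher genes among these was 55.9%, and 74.1% with libraries scaled by size alone. Of the 12 adipocyte markers, all detected, 1 rose and 4 fell, and they summed to 43538 to 49428 FPKM in WT and 36816 to 44105 FPKM in the labelled group. In a whole fat pad, fewer cells of a type and less RNA per cell cannot be told apart.

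The NR4A receptors, orphan nuclear receptors that bind DNA without a known ligand, all had lower means in the libraries labelled Mrp4 KO, and Nr4a1 was the 1 gene of the 10 that passed the test. Nr4a1 (gene 15370), the family member best known as Nur77, was at 22.8, 14.7, 23.6 and 9.89 FPKM in WT replicates 1, 2, 3 and 4 and at 7.5, 14.2, 5.23 and 4.88 FPKM in KO-labelled replicates 1, 2, 4 and 5. The WT libraries were high except replicate 4, the labelled libraries were low except replicate 2, and the groups overlapped through those libraries. Nr4a1 fell from 17.8 ± 6.61 to 7.94 ± 4.3 FPKM (SD, n = 4 each). Its log2 fold change was -1.23 ± 0.37 (SE, edgeR adjusted p = 0.0473), and the fold itself had a 95% interval of 0.241 to 0.759. The call stood close to the threshold. It was lost without WT replicate 1 or 3 (-1.08 and -1.06 on the log2 scale, edgeR adjusted p = 0.121 and 0.117) and without KO-labelled replicate 1, 4 or 5 (-1.19, -1.07 and -1.06, edgeR adjusted p = 0.122, 0.118 and 0.118), and in 6 of 10 other settings. The replicate block, in which WT replicate 3 and KO-labelled replicate 5 have no partner, lowered the size to -0.93 (edgeR adjusted p = 0.158).

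Nr4a3 (gene 18124), or Nor1, was at 1.88, 3.03, 3.36 and 1.87 FPKM in WT and at 1.31, 2.23, 1.04 and 1.35 FPKM in the libraries labelled Mrp4 KO. KO-labelled replicate 2 was again the one labelled library inside the WT range. The log2 fold change of -0.83 ± 0.28 did not pass (edgeR adjusted p = 0.0653), though its 95% interval, from -1.46 to -0.21, lay below 0 before adjustment for the number of genes. It passed without KO-labelled replicate 2 (-1.09, edgeR adjusted p = 0.0356) and with DESeq2 (-0.83, adjusted p = 0.0353). Nr4a2 (gene 18227), or Nurr1, was the lowest of the 10 genes, at 1.84, 1.76, 1.51 and 1.28 FPKM in WT and at 1.1, 1.53, 1.42 and 1.15 FPKM in the labelled group. Its values lay within a factor of 1.67 of each other over all libraries, the narrowest range among the 10, and the log2 fold change was -0.36 ± 0.17 (edgeR adjusted p = 0.167). Summed over the 3 receptors, NR4A transcripts came to 21.9 ± 7.05 FPKM in WT and to 10.7 ± 4.92 FPKM in the labelled group (SD, n = 4). Nr4a1 made up 75.4% to 86.0% of that sum in WT and 66.1% to 79.0% in the labelled group, so its values set the family's total.

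**Figure D1:**
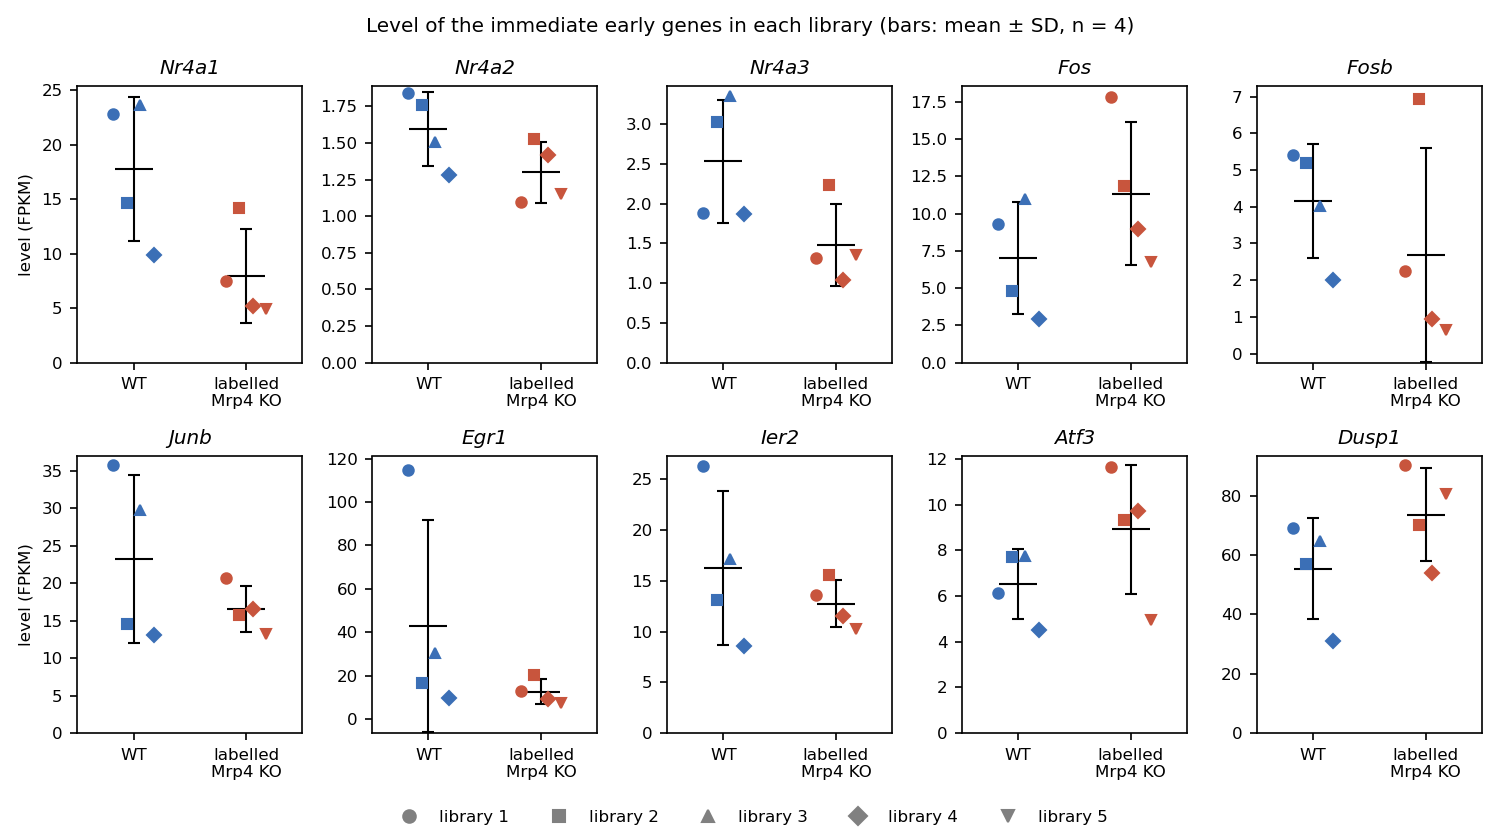
Level in FPKM of each of the 10 genes (vertical axis, 1 panel per gene, linear scale) in the 4 WT libraries (blue) and the 4 libraries labelled Mrp4 KO (red); the shape of a point gives the library number, and the black bars give the mean ± SD. WT replicate 4 (blue diamond) was the lowest WT library in all 10 panels, and the groups overlapped in every panel; the SD bars of Egr1 in WT and of Fosb in the labelled group reach below 0.

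Among the AP-1 genes, Fos had a higher mean and Fosb and Junb lower means in the libraries labelled Mrp4 KO. None of them passed the test reported here. Fos, Fosb and Junb encode subunits of AP-1, a dimer of a FOS and a JUN protein that binds DNA downstream of MAP kinases. Fos (gene 14281) was at 9.29, 4.83, 11.0 and 2.95 FPKM in WT and at 17.8, 11.9, 9.0 and 6.72 FPKM in the libraries labelled Mrp4 KO. KO-labelled replicates 1 and 2 lay above the WT range, the other two within it. The log2 fold change was 0.63 ± 0.40 (edgeR adjusted p = 0.295), and the fold had a 95% interval of 0.825 to 2.89. With the replicate number as a block it passed (1.18, edgeR adjusted p = 0.0396). No label says that libraries of the same number are paired, and WT replicate 3 and KO-labelled replicate 5 have no partner in that fit.

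Fosb (gene 14282), the FOS family member that accumulates with repeated stimulation through its stable splice form, was at 5.4, 5.18, 4.03 and 2.0 FPKM in WT and at 2.25, 6.93, 0.95 and 0.63 FPKM in the labelled group. KO-labelled replicate 2 held the highest value of all 8 libraries and KO-labelled replicates 4 and 5 the lowest, an 11.0-fold range inside 1 group. The log2 fold change of -0.69 ± 0.65 did not pass (edgeR adjusted p = 0.474), and without KO-labelled replicate 2 it was -1.76 (edgeR adjusted p = 0.0433). Junb (gene 16477), a JUN partner that restrains c-Jun, was at 35.7, 14.6, 29.8 and 13.0 FPKM in WT and at 20.7, 15.8, 16.6 and 13.2 FPKM in the labelled group. WT replicates 1 and 3 stood above all labelled libraries and WT replicates 2 and 4 among or below them. Its log2 fold change was -0.56 ± 0.31 (edgeR adjusted p = 0.228). The 3 AP-1 genes summed to 34.4 ± 15.6 FPKM in WT and to 30.6 ± 8.91 FPKM in the labelled group. The part of that sum from Fos, singled out after its values were seen, was 16.4% to 24.5% in WT and 32.8% to 43.7% in the labelled group. These ranges did not overlap, as was so for 24.4% of the ratios between any 2 tested genes, a related measure.

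Egr1 varied most among WT libraries. It encodes a zinc finger factor of the serum and MAP kinase response, and Ier2 a small nuclear protein induced with it. Egr1 (gene 13653) was at 115, 16.8, 30.5 and 9.74 FPKM in WT and at 13.1, 20.6, 9.4 and 7.48 FPKM in the libraries labelled Mrp4 KO. WT replicate 1 held 5061 expected counts of Egr1 and the other 7 libraries 319 to 1347. The log2 fold change was -1.84 ± 0.74 (edgeR adjusted p = 0.113), the largest of the 10 in size, and it was -0.65 without WT replicate 1 (edgeR adjusted p = 0.354). The size of the Egr1 difference thus rested on 1 library. Ier2 (gene 15936) was at 26.4, 13.1, 17.1 and 8.54 FPKM in WT and at 13.6, 15.6, 11.6 and 10.3 FPKM in the labelled group. WT replicates 1 and 4 were its highest and lowest libraries, with all labelled libraries between them. Its log2 fold change was -0.42 ± 0.29 (edgeR adjusted p = 0.34), and -0.08 without WT replicate 1.

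Atf3 and Dusp1 had higher means in the libraries labelled Mrp4 KO, without passing the test. Atf3, a stress-induced bZIP repressor of the ATF/CREB family (gene 11910), was at 6.12, 7.7, 7.77 and 4.52 FPKM in WT and at 11.7, 9.35, 9.73 and 4.96 FPKM in the labelled group. KO-labelled replicates 1, 2 and 4 lay above every WT library and KO-labelled replicate 5 below all WT libraries but replicate 4. The log2 fold change was 0.39 ± 0.25 (edgeR adjusted p = 0.29). Dusp1 (gene 19252) encodes the dual-specificity phosphatase that switches off MAP kinases, and is also a glucocorticoid target. It was the most abundant of the 10 genes, at 69.1, 56.9, 64.9 and 31.0 FPKM in WT and at 90.3, 70.01, 53.8 and 80.5 FPKM in the labelled group. KO-labelled replicates 1, 2 and 5 lay above the WT range. Its log2 fold change was 0.35 ± 0.24 (edgeR adjusted p = 0.32), and the fold had a 95% interval of 0.882 to 1.84.

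Of the 10 genes, all of which passed the filter on low counts, 0 rose and 1 fell, where 10.2% of all tested genes rose and 8.05% fell. The share called, 1 of 10, was not above the 18.3% of all tested genes. At an unadjusted edgeR p under 0.05, 3 were lower (Nr4a1, Nr4a3 and Egr1) and 0 higher. The share of all tested genes at that unadjusted p was not counted. DESeq2 called 2 lower and 0 higher, beside 1529 lower and 1785 higher among all 14257 tested genes. For limma-voom it was 1 lower and 0 higher, beside 1094 lower and 1483 higher among all tested genes. The log2 fold change was negative for 7 genes and positive for Fos, Atf3 and Dusp1, in each of the 18 alternative settings as in the fit reported here. The median was -0.49, against 0.00 over all tested genes, and ranged from -0.69 without WT replicate 4 to -0.26 with the replicate block. Group ranges overlapped for all 10. Over all tested genes, ranges lay apart for 23.5%, with the labelled group lower for 7.08% and higher for 16.4%.

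**Figure D2:**
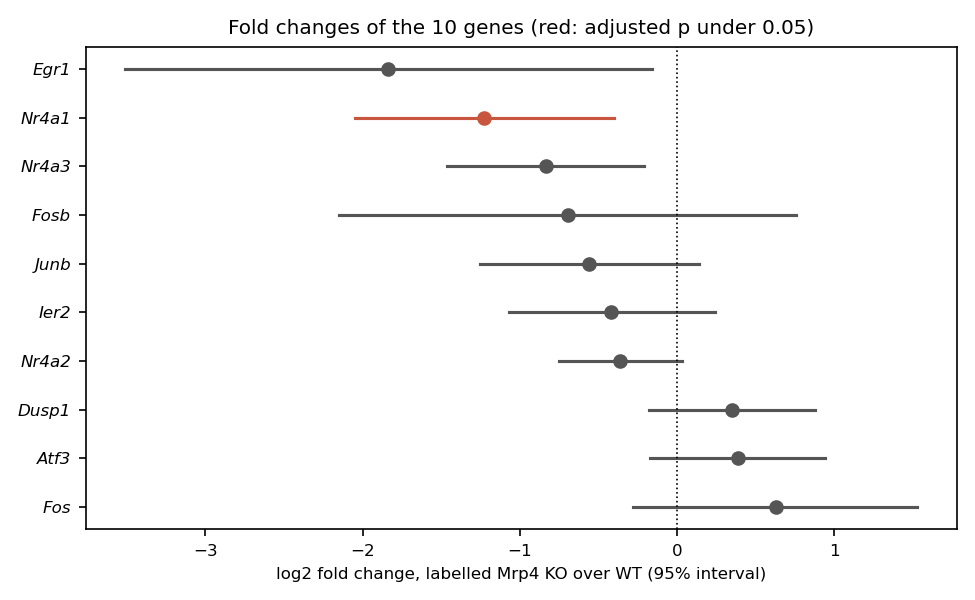
Log2 fold change of each gene, libraries labelled Mrp4 KO over WT (horizontal axis), with its 95% interval from edgeR as a line; red marks an adjusted p under 0.05. Nr4a1 alone is red at -1.23, Egr1 has the widest interval, and Dusp1, Atf3 and Fos lie to the right of 0.

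The levels themselves spanned from Dusp1, at a mean of 64.6 FPKM over all 8 libraries, to Nr4a2, at 1.45 FPKM. Between them stood Egr1 (27.8 ± 36.0, SD over 8 libraries), Junb (19.9 ± 8.42), Ier2 (14.5 ± 5.53), Nr4a1 (12.8 ± 7.36), Fos (9.18 ± 4.62), Atf3 (7.72 ± 2.47), Fosb (3.42 ± 2.3) and Nr4a3 (2.01 FPKM, from 1.04 to 3.36). Every neighbour in this order overlapped the next in its range over the libraries. Within a library the order was firmer for some neighbours: Junb exceeded Ier2 and Atf3 exceeded Fosb in 8 of 8 libraries. Egr1 exceeded Junb in 4 of 8 libraries, so these neighbours had no settled order.

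The spread between libraries of 1 group was large for most of these genes beside others in their joint range of abundance. That range runs from the lowest to the highest of the 10, so no gene was compared with others of its own level alone. The within-group standard deviation of log2 CPM (counts scaled to library size, on a log scale), pooled over both groups, was 1.16 for Egr1, 1.14 for Fosb, 0.73 for Fos and 0.63 for Nr4a1. Junb was at 0.54, Ier2 at 0.51, Atf3 at 0.44, Nr4a3 and Dusp1 at 0.43 each and Nr4a2 at 0.22. The median of the 10 was 0.52, against 0.17 over all tested genes and 0.15 over the 10267 tested genes in the same range of mean log2 CPM. Against those 10267 genes, 9 of the 10 lay above the 90th percentile, from 95 for Nr4a3 to 99.9 for Fosb and Egr1. Nr4a2 lay at percentile 74.9. The spread was larger in WT for Egr1 (1.53 in WT and 0.62 in the labelled group), Junb (0.72 and 0.25) and Ier2 (0.67 and 0.24), and larger in the labelled group for Fosb (0.64 and 1.49). These differences in spread were not tested.

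**Figure D3:**
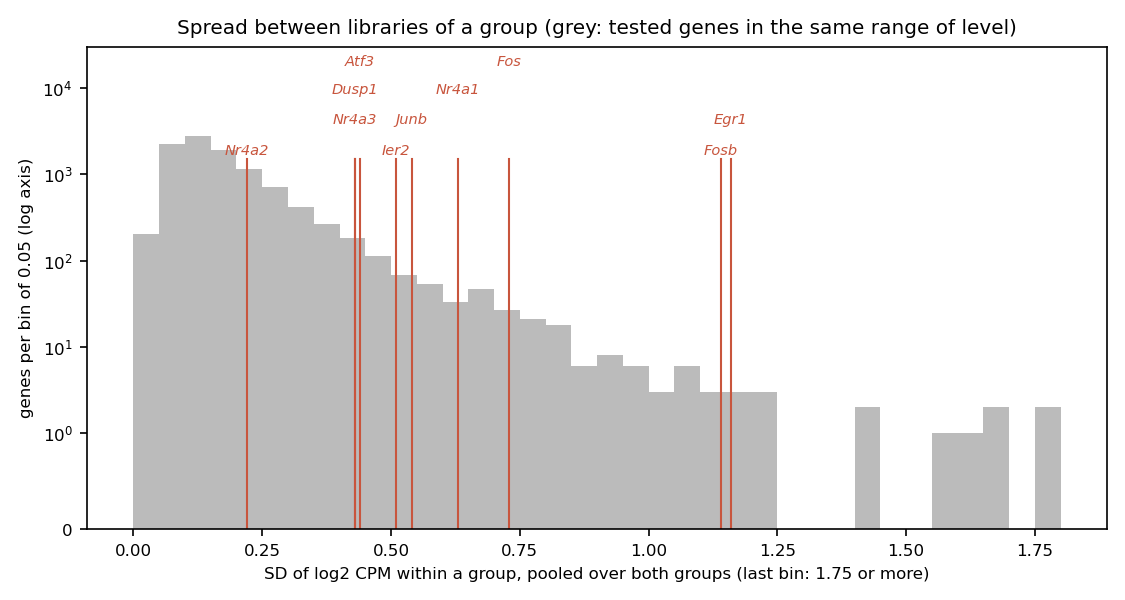
Number of tested genes (vertical axis, log scale) by their within-group standard deviation of log2 CPM (horizontal axis), for the 10267 genes in the members' range of level; red lines mark the 10 genes. Nr4a2, at 0.22, stands near the bulk of genes, and Fosb and Egr1, at 1.14 and 1.16, stand in the far tail.

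The libraries ranked alike across many of the genes. WT replicate 4 was the lowest WT library for 10 of 10 genes, and WT replicate 1 or 3 the highest WT library for all of them (6 and 4 genes). How often these ranks occur over all tested genes was not counted. In the labelled group, replicate 5 was lowest for 7 genes, and replicates 2 and 1 were highest for 6 and 4. WT replicate 1 held a summed level of 293 FPKM over the 10 genes and WT replicate 4 84.8 FPKM, a gap wider than that between any 2 libraries labelled Mrp4 KO, whose sums ran from 119 to 179 FPKM. Without Egr1 and Dusp1, the most abundant genes, the sums were 44.1 to 109 FPKM in WT and 43.1 to 77.4 FPKM in the labelled group.

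Correlations between members over the 8 libraries were computed on log2 CPM for all 45 pairs. Egr1 and Ier2 had Pearson's r = 0.96 (exact permutation p = 0.000322, adjusted p = 0.0145 over the 45 pairs) and Spearman's rho = 0.93 (exact permutation p = 0.00223, adjusted p = 0.0502), and r = 0.81 without the 2 libraries farthest from the median of Egr1. Junb and Ier2 had r = 0.89 (exact permutation p = 0.00248, adjusted p = 0.0372) and rho = 0.79 (exact permutation p = 0.0279, adjusted p = 0.138), and r = 0.53 without the 2 farthest libraries, so that this relation rested in part on those. Nr4a1 and Egr1 had r = 0.84 (exact permutation p = 0.00161, adjusted p = 0.0363) and rho = 0.93 (exact permutation p = 0.00223, adjusted p = 0.0502), and r = 0.79 without the 2 farthest. These 3 pairs were the ones to pass on r, and 0 of the 45 passed on rho. Junb and Egr1 did not pass (r = 0.87, exact permutation p = 0.00563, adjusted p = 0.0507; rho = 0.74, adjusted p = 0.159), and r was 0.27 without the 2 farthest libraries. Nr4a1 and Fosb did not pass either (r = 0.88, exact permutation p = 0.00526, adjusted p = 0.0507; rho = 0.76, adjusted p = 0.138). With each group's mean removed, r was 0.98, 0.87 and 0.78 for Egr1 and Ier2, Junb and Ier2, and Nr4a1 and Egr1.

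Over the 8 libraries, r was 0.80 for Fos and Dusp1 and 0.75 for Fos and Atf3, the members whose means were also higher in the labelled group, and neither passed after adjustment (exact permutation p = 0.0192 and 0.0315, adjusted p = 0.116 and 0.129; rho = 0.64 and 0.76, exact permutation p = 0.0962 and 0.0368, adjusted p = 0.271 and 0.138). Without the 2 libraries farthest from the median of Fos, r was 0.32 and 0.82. With each group's mean removed, r was 0.74 and 0.69, and Fos was as close or closer to genes with lower means in the labelled group: r was 0.90 with Junb, 0.82 with Ier2, 0.75 with Nr4a1 and 0.74 with Egr1. Over all 8 libraries those pairs had r = 0.50, 0.51, 0.06 and 0.28. Atf3 and Dusp1 were less close (r = 0.43, exact permutation p = 0.301, adjusted p = 0.542; rho = 0.26). Of the 45 values of r, 37 were positive and 8 negative, with a median of 0.46 and a lowest value of -0.20. The 8 negative values joined Fos, Atf3 or Dusp1 to an NR4A gene, and all 8 were positive with each group's mean removed, from 0.18 for Nr4a2 and Dusp1 to 0.55 for Nr4a1 and Dusp1.

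**Figure D4:**
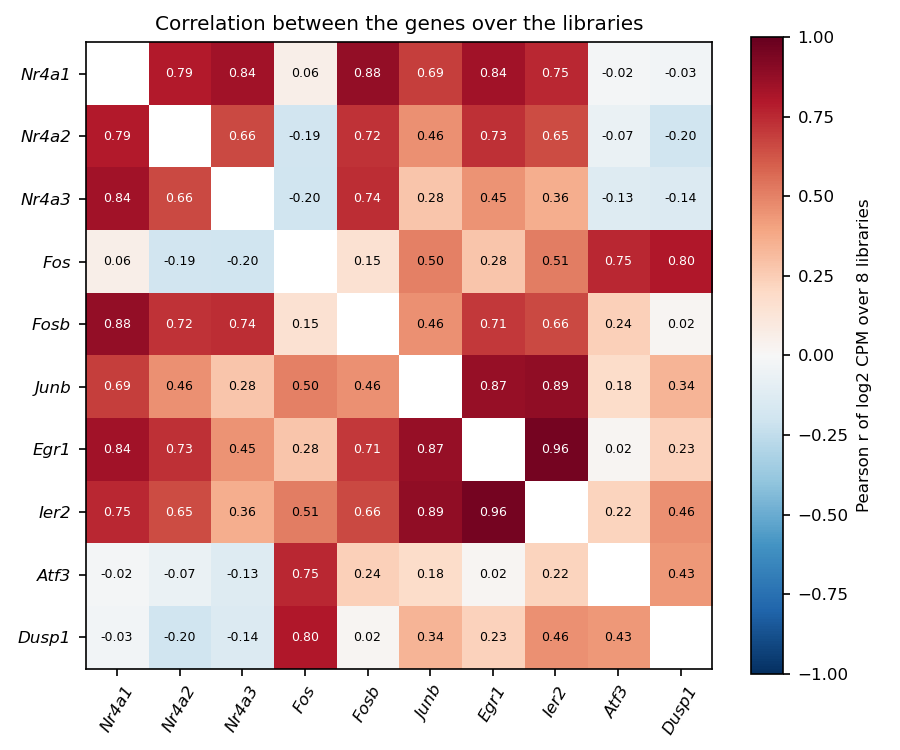
Pearson's r of log2 CPM over the 8 libraries for each pair of the 10 genes (both axes), from blue (-1) through white to red (1). The darkest cell joins Egr1 and Ier2 (0.96), followed by Junb with Ier2 (0.89) and Nr4a1 with Fosb (0.88), and the Fos, Atf3 and Dusp1 columns are pale against the NR4A genes.

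Ratios between the genes inside a library were then compared, a step chosen after the values were seen. The ratio of Fos to Nr4a1, as FPKM over FPKM, was 0.407, 0.329, 0.465 and 0.298 in WT and 2.38, 0.838, 1.72 and 1.38 in the libraries labelled Mrp4 KO. Nr4a1 exceeded Fos in 4 of 4 WT libraries, and Fos exceeded Nr4a1 in every labelled library but replicate 2. The ratio of Fos to Junb was 0.226 to 0.369 in WT and 0.511 to 0.862 in the labelled group, and that of Dusp1 to Nr4a1 was 2.75 to 3.87 and 4.95 to 16.5. On log2 CPM, the groups' ranges lay apart for 9 of the 45 ratios (10 on FPKM), each of the 9 between Fos, Atf3 or Dusp1 and another gene. Fos, Atf3 and Dusp1 were the genes with a positive log2 fold change, so this follows in part from the directions given above. Each of the 9 had the smallest exact permutation p that the design allows (0.0286), and an adjusted p of 0.143 over the 45, so 0 passed. This was no more than in general, since 24.4% of the ratios between any 2 tested genes had group ranges that lay apart.

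**Figure D5:**
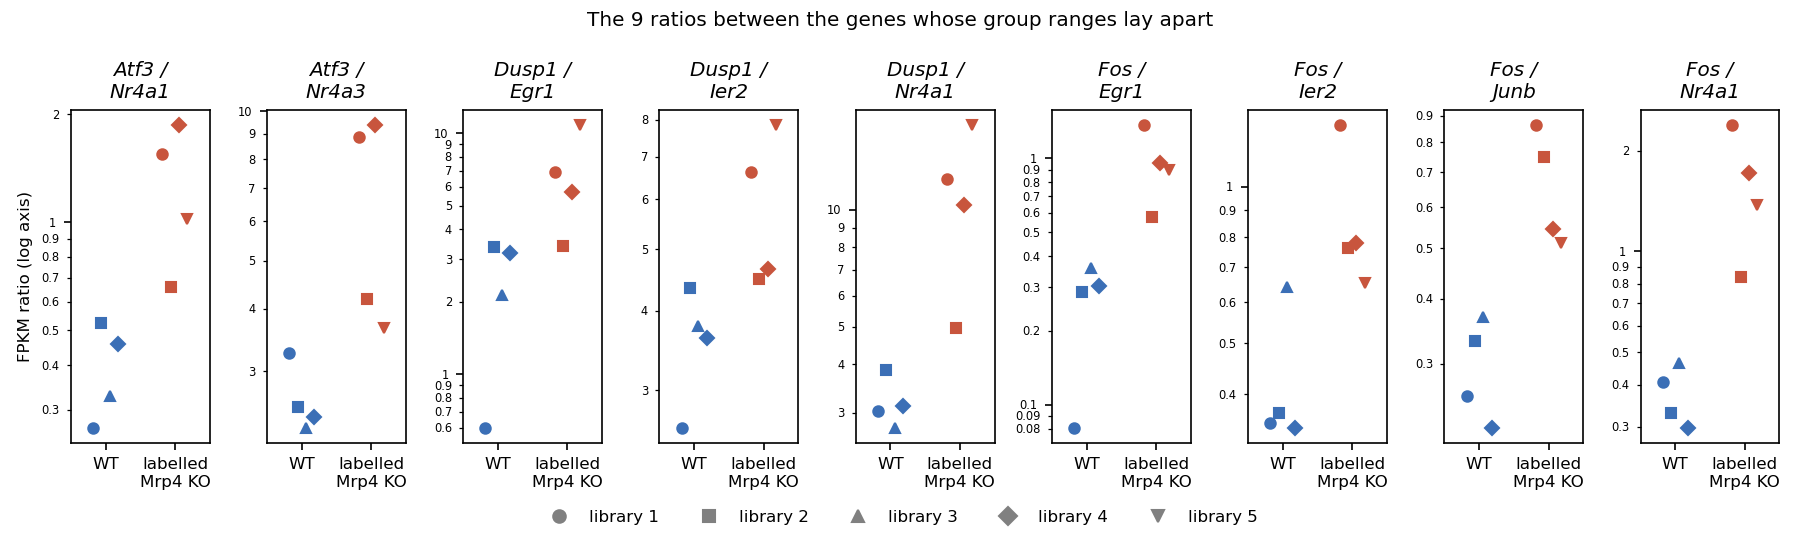
FPKM ratio of 2 genes in each library (vertical axis, log scale, own range per panel) for the 9 ratios whose group ranges lay apart; blue points are WT libraries, red points libraries labelled Mrp4 KO, and shapes give the library number. KO-labelled replicate 2 (red square) is the labelled library nearest to WT for Fos over Nr4a1, at 0.838.

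Genes that work with the 10 were read from 8 lists, and their calls are to be set beside the 18.3% of all tested genes. The list of other AP-1 genes had 13 tested members with a median of -0.10, and 1 of them rose while 0 fell. Batf3, an AP-1 factor of dendritic cells, rose from 4.13 ± 0.887 to 7.99 ± 2.49 FPKM (edgeR adjusted p = 0.0321). Its call was lost in 5 of 8 fits without 1 library, where the log2 fold change ran from 0.67 to 1.02 over the 8. In the EGR list, of 4 tested genes 0 rose and 1 fell. Egr3, a paralogue of Egr1 that EGR1 can induce, was at 11.9, 2.4, 5.83 and 1.23 FPKM in WT and at 0.91, 2.05, 1.15 and 0.42 FPKM in the labelled group (-2.29 ± 0.69, edgeR adjusted p = 0.0485), with its highest value in the library that was highest for Egr1. Its call was lost in 6 of 8 fits without 1 library (-1.53 on the log2 scale when WT replicate 1 was left out) and in 7 of 10 other settings. The EGR corepressor genes Nab1 and Nab2 did not pass (-0.08 and -0.25).

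Among other immediate early genes, of 34 genes 2 rose and 5 fell, a share of 20.6%, with a median of -0.09. Myc, the growth regulator, fell by 0.69 on the log2 scale to 7.79 ± 1.05 FPKM, and Errfi1, an inhibitor of the EGF receptor, from 70.5 ± 25.7 to 34.5 ± 8.7 FPKM (edgeR adjusted p = 0.0128 and 0.0234). Errfi1 lost its call in 4 of the 8 fits without 1 library. Cited2, Gadd45g and Tiparp fell as well (-0.60, -1.0 and -0.47), each losing the call in 3 to 6 of the 8 fits without 1 library. The polo-like kinase gene Plk2 and the stress gene Gadd45b rose (0.76 and 0.79; edgeR adjusted p = 0.00876 and 0.0138). Their group ranges did not overlap, and neither lost its call in a fit without 1 library. The share called was near the 18.3% of all tested genes.

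Among the other MAP kinase phosphatases, of 10 genes Dusp7 rose (0.34) and Dusp16 fell (-0.29), with calls lost in 4 and 3 of the 8 fits without 1 library, and Dusp4 and Dusp5 did not pass (-1.15 and -0.44; edgeR adjusted p = 0.064 and 0.216). Among slower CREB targets, of 15 tested genes 0 rose and 2 fell. These were Irs2, the insulin receptor substrate, from 35.2 ± 2.42 to 24.1 ± 4.55 FPKM and Ppargc1a (-1.02). Pde4b, a cyclic AMP phosphodiesterase that cyclic AMP itself induces, was at 5.54 ± 1.15 and 8.12 ± 1.35 FPKM with ranges that did not overlap (0.49, edgeR adjusted p = 0.0562). In the same list, 3 genes were higher and 3 lower at an unadjusted p under 0.05, a threshold not counted over all tested genes.

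The signalling genes upstream of the 10 were called at or below the rate of all tested genes. Among CREB, its coactivators and protein kinase A, of 18 genes 0 rose and 2 fell, with a median of -0.06. Sik2, a salt-inducible kinase that keeps CREB coactivators out of the nucleus, fell from 168 ± 26.1 to 116 ± 6.5 FPKM (-0.60 ± 0.12, edgeR adjusted p = 0.0109), and its call held in the 8 fits without 1 library. Crebbp, the CREB-binding acetyltransferase, fell by 0.23 on the log2 scale, and lost its call in each of the 8 fits without 1 library. Prkaca, the catalytic subunit of protein kinase A, did not pass (-0.29, edgeR adjusted p = 0.0553). Among MAP kinase and SRF genes, of 23 genes 1 rose and 3 fell, with Rps6ka2 at 0.48 and Araf at -0.22, each of which lost its call in 6 of the 8 fits without 1 library. Srf, the factor that binds the SRE, fell from 20.1 ± 1.27 to 17.0 ± 1.46 FPKM (-0.30 ± 0.07, edgeR adjusted p = 0.0227), and its partner gene Elk1 from 12.1 ± 0.484 to 10.6 ± 0.848 FPKM. Their calls were lost in 5 and 6 of the 8 fits without 1 library.

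Heat shock genes, another group known to respond to handling, were measured beside them. Of 12 genes 0 rose and 0 fell by edgeR, DESeq2 called 1 lower, and limma-voom called 0. At an unadjusted p under 0.05, a threshold not counted over all tested genes, 0 were higher and 5 lower. All 12 had a negative log2 fold change, with a median of -0.35, where 7194 of 14257 tested genes had a negative one. Hspa1a, an inducible HSP70 gene, was at 18.9, 12.5, 27.6 and 4.41 FPKM in WT and at 6.8, 5.67, 9.69 and 6.85 FPKM in the libraries labelled Mrp4 KO (-1.18, edgeR adjusted p = 0.0949). Its near-identical copy Hspa1b was at 28.4, 22.5, 42.3 and 8.64 FPKM and at 8.1, 10.9, 17.1 and 7.76 FPKM, and reads may be divided between the copies. WT replicate 4 was the lowest WT library and WT replicate 3 the highest for both. For Nr4a1 the same WT libraries were lowest and highest. Among the labelled libraries, replicate 4 was highest for Hspa1a and Hspa1b and low for Nr4a1. KO-labelled replicate 2 was highest for Nr4a1, lowest for Hspa1a and next to highest for Hspa1b. KO-labelled replicate 5 was lowest for both Nr4a1 and Hspa1b. Elsewhere in the list, WT replicate 4 was also the lowest WT library for Dnajb1 (15.2 FPKM), Hspb1 (113.9 FPKM) and Bag3 (37.0 FPKM). Hspd1 was at 127.8, 93.8, 126.6 and 129.6 FPKM in WT, so WT replicate 4 was not low for it. The remaining genes of the list were not compared in this way. The part of handling in the Nr4a1 difference was not tested.

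Markers of other cells of the fat pad are given beside the 18.3% of all tested genes that differed, and the mesothelial, neutrophil, T and NK cell and red blood cell lists had a smaller share called. Of 13 macrophage markers 5 rose and 0 fell, with sums of 1079 to 1308 FPKM in WT and 1266 to 1891 FPKM in the labelled group. Of 11 endothelial markers 5 rose and 0 fell, with sums of 403 to 623 and 660 to 685 FPKM. The 12 liver transcripts all rose, from sums of 47.5 to 126 FPKM to sums of 773 to 1443 FPKM. Of 10 mesothelial markers 0 rose and 1 fell, with sums of 191 to 295 and 71.2 to 193 FPKM, and of 6 tested mast cell markers 1 rose and 4 fell, with sums of 48.9 to 83.2 and 28.8 to 53.4 FPKM. Of 6 tested neutrophil markers 0 rose and 1 fell, and the sums were 10.6 to 34.1 FPKM in WT, highest in WT replicate 1, and 13.7 to 17.9 FPKM in the labelled group. Of 5 tested B cell markers 2 rose and 0 fell, and of 8 T and NK cell markers 0 rose and 0 fell, with sums of 5.83 to 8.77 and 10.9 to 13.7 FPKM. Of 10 smooth muscle and pericyte markers 3 rose and 0 fell, and of 10 progenitor and fibroblast markers 4 rose and 1 fell. Of 7 red blood cell markers 0 rose and 0 fell, and of 2 tested skeletal muscle markers 0 rose and 1 fell. Epididymis transcripts had 0 tested members. None of the matched markers in these lists was at 0 in all libraries. The part of cell composition in the differences of the 10 genes was not tested.

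The genes whose pattern was most like the mean standardised log2 CPM of the 10 were Midn (Pearson's r = 0.95 over 8 libraries), Snhg4 (0.95), Zfp692 (0.94), Chrac1 (0.92), Ppp4c, Elovl1, Frmd7 and Pura (0.91 each). They are the highest among all tested genes other than the 10, so r is a description of these libraries. Their own ranges were narrow: Midn, known as an immediate early gene whose product promotes turnover of IEG proteins, was at 19.7, 17.7, 21.5 and 15.6 FPKM in WT and at 18.8, 19.9, 16.9 and 15.7 FPKM in the libraries labelled Mrp4 KO. None of the 8 differed between the groups, with edgeR adjusted p from 0.222 to 0.487.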

How the data were processed

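Polyadenylated RNA of epididymal fat was sequenced as paired reads of 100 bases on BGISEQ-500, per the labels' protocols. The build mm9 and Bowtie2 are named in the submitters' processing notes, and no source used here names the quantifier. The authors deposited an expected count per gene, which need not be whole, and an FPKM value, per the file headers, with a transcript length in bases. A gene not listed in a library's file was taken as 0. The authors' deposited table of all libraries held the same FPKM values.

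Rounded to whole numbers, these expected counts were fitted with edgeR 4.0.16 in R 4.3.3 (filterByExpr, which kept 14257 of 18691 genes, TMM factors, robust quasi-likelihood test, genotype alone), adjusted over all tested genes at 0.05. SE is the log2 fold change divided by the root of F. Log2 CPM used a prior count of 2. The alternatives were other factors, filters, DESeq2 1.42.0, limma 3.58.1 (voom, or the log2 of FPKM with a pseudocount of 1 or 0.1), the replicate block, and each library left out. The fit was tested on simulated data. Reads carried no molecular identifiers, and no use of strand is stated.

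Members, lists and tests were chosen with earlier results of these data known. Named genes are the members, Abcc4, up to 4 genes with the lowest p at a mean of at least 1 FPKM and any that passed in each of 8 companion lists, the 8 most alike genes, and in 14 marker lists the genes at 0 and the most abundant. Not all that the rule names are reported. Ratios, counts of CRE cores and the G and C comparison were added after the data were seen. Epididymis, skeletal muscle, red blood cell, T and NK cell, B cell, smooth muscle and progenitor lists were also read.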

Additional observations from a re-analysis of the deposited data

Results flagged for a closer look

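In groups of 4 libraries, 136 groups of values were searched for a library that stands apart from the other 3 (its gap to the nearest library, over the whole range, beyond Dixon's 95% critical value), and 10 were found, where chance alone marks about 1 in 20. None of the 20 groups of the 10 immediate early genes was among them, and the nearest was Egr1 in WT, with a gap of 0.803 of the range. Among companion genes, WT replicate 1 stood above the other WT libraries for Gadd45g (49.9 FPKM, next 29.0) and for Dusp4 (21.1 FPKM, next 9.78). Cited2 was at 91.9 FPKM in WT replicate 3 (next 61.2). Crebbp was lowest in KO-labelled replicate 5 (7.9 FPKM, next 9.06), Akap1 in WT replicate 4 (22.7 FPKM, next 23.0) and Hspd1 in WT replicate 2 (93.8 FPKM, next 127). Summed adipocyte markers reached 44105 FPKM in KO-labelled replicate 5 (next 37621). Summed T and NK cell markers reached 13.7 FPKM in KO-labelled replicate 1 (next 11.1), and summed endothelial markers were lowest in KO-labelled replicate 4 (660.0 FPKM, next 683). The matched epididymis transcripts summed to 13.8 FPKM in WT replicate 2 and to 0.74 FPKM or less in the other WT libraries, and Crisp1 made up nearly all of it (13.5 FPKM).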

How the results depend on the processing

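The number of members called was 1 and became 0 with library size alone, upper quartile factors, no low count filter or limma on FPKM with either pseudocount, and 2 with DESeq2, all of them lower. Without 1 library it ranged from 0 (without WT replicate 1 or 3 or KO-labelled replicate 1, 4 or 5) to 3 (without KO-labelled replicate 2), again all lower. Over all genes 2606 differed, and leaving out any library other than WT replicate 2 lowered that count by over 1.5 times. It ran from 1172 (without WT replicate 4) to 3683 (without WT replicate 2). In the companion lists 19 genes differed, 30 with DESeq2, and 7 (without WT replicate 3 or KO-labelled replicate 1) to 29 (without WT replicate 2) without 1 library. The Abcc4 difference on log2(FPKM + 1) was 0.028, ran from -0.001 to 0.06 without 1 library, and changed sign only without KO-labelled replicate 4 (-0.001). With the replicate block, 141 genes differed, 0 members were lower and 1 (Fos) was higher, and 0 companion genes differed. WT replicate 3 and KO-labelled replicate 5 have no same-numbered library, so in that fit they add nothing to the genotype difference. The labels state no link between same-numbered libraries. The correlations of their deviations from the group means were 0.011, -0.075 and -0.128, which cannot settle whether they were paired. The cause of these changes was not tested. All 10 members kept the sign of their log2 fold change in every setting. The total count per library bounds precision most for Nr4a3, with 28 to 90 expected counts per library.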
